A study of Mus musculus with 66 samples.

Results

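The genes followed here are linked to hormones of the Sertoli cell and were measured in mouse testes between birth and adult age. They are Amh, Amhr2, Inha, Inhba, Inhbb, Fst, Acvr2a and Fshr, which make up 8 of the 15964 genes that a probe set of the arrays names alone. A probe set is the group of oligonucleotides on an array that reports 1 transcript, and the genes were chosen by name, with every probe set annotated to 1 of them and to no other gene. No member was absent from the arrays, and the 8 genes had 13 probe sets. Total RNA came from whole testes of BL/6-129 mice at days 0, 3, 6, 8, 10, 14, 18, 20, 30, 35 and 56 after birth, with no treatment named. Each day had 2 numbered samples, and each number has 1 array of each of 3 types, A, B and C, which makes 66 arrays in all. It is not stated in the labels if the samples came from single animals or from pools, so p-values measure only the spread between these samples. The labels also do not state if a number marks the same sample on all 3 types.

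Sertoli cells are the somatic cells of the seminiferous tubule that nurse germ cells. In the fetal and newborn testis they secrete anti-Müllerian hormone, encoded by Amh, which binds the receptor encoded by Amhr2 and makes the Müllerian ducts regress; its production is known to cease as the cells mature. Inhibins and activins are dimers built from shared subunits. The alpha subunit, from Inha, pairs with a beta subunit, from Inhba or Inhbb, to make an inhibin, which lowers pituitary output of follicle-stimulating hormone (FSH), while a pair of beta subunits makes an activin. Activins bind type II receptors such as the product of Acvr2a and signal through Smad proteins, and follistatin, from Fst, binds and neutralizes them. FSH acts on Sertoli cells through the receptor encoded by Fshr, which couples to cyclic AMP.

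Regions upstream of the start of transcription are shown for 3 of the genes, to put beside the values below: Fshr, whose signals stayed within a narrow range, Inhbb, which fell, and Amhr2, which rose and fell. They come from RefSeq on the GRCm38.p6 build. A RefSeq window of 300 bases, from 250 before to 50 after a transcript start, was matched for 6 of the 8 genes. The first sequence is the 250 bases before the Fshr start (chr17:89200676-89200925, minus strand). The second is the same stretch for Inhbb (chr1:119422249-119422498, minus strand). The third is a slice of 30 bases from the Amhr2 window (chr15:102445125-102445154, plus strand). Capitals mark the motif letters found.
Fshr: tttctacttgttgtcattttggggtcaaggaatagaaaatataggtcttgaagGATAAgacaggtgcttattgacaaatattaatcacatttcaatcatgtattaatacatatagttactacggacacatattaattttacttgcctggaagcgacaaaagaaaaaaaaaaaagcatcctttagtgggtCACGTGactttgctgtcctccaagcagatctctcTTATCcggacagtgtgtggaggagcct
Inhbb: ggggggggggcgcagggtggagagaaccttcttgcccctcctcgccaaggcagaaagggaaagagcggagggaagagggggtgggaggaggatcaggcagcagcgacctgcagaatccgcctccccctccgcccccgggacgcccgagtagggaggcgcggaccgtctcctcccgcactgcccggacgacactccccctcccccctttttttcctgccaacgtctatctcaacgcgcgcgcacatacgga
Amhr2: caccttcttccAAGGTCAgtaggggtagag
The Fshr stretch holds CACGTG, the E-box letters, at 61 to 56 bases before the start. It also holds GATAA, the letters bound by GATA factors, at 197 to 193 bases on the given strand and at 27 to 23 bases on the other strand, where it reads TTATC. The E-box letters stood in 7.15% of all 32851 windows of this length and GATAA in 25.4% on either strand. The Amhr2 slice holds AAGGTCA, letters known to be bound by the orphan receptor SF-1, at 231 to 225 bases before the transcript start, and these letters were in 4.72% of windows. That start lies 365 bases inside the annotated start of Amhr2. The Inhbb stretch held none of the 8 motifs searched, the others being AACAAT (SOX factors, 10.7% of windows), TGACGTCA and TGACG (cyclic AMP response elements, 1.79% and 20.8%), GTCTAGAC (Smads, 0.213%) and TATAAA (the TATA box, 13.6%). All were searched on both strands, and every TGACGTCA also counts as a TGACG. Of the bases shown, 36.8% were G or C for Fshr and 68% for Inhbb. A match is a match of letters and does not show a bound site.

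The values are signals, one linear number per probe set and array, which the authors scaled to a mean of 125, so a change is relative to all signals of an array. Tests used log2(signal + 16), which shrinks the changes of dim probe sets. Where a gene had several probe sets, the brightest on average stood for it, provided that a signal of 50 was reached on at least 2 of the 22 arrays of its type. Of the 13 probe sets 12 passed, and all 8 genes could be tested among 13472. A call required an adjusted p under 0.05 and at least 2-fold on the log2(signal + 16) scale, and errors of changes are standard errors from the limma fit, which pools the spread of 2 samples a day over all 11 days. The number of arrays limits the precision.

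The 2 samples of a day differed in a way that touches some of these genes. On type A at days 0 to 20 the signal of the actin 3' control probe set was higher in sample 2 than in sample 1 by 2.16-fold to 4.91-fold, and at days 30 to 56 the ratio was 0.812 to 1.15. On types B and C the ratio at days 0 to 20 was 0.271 to 0.762, so the numbers ran the other way there. For genes measured on 2 types, the difference of sample 2 from sample 1 was correlated between types at days 0 to 20. The r was -0.493 to -0.05 for A with B, -0.287 to -0.055 for A with C and 0.045 to 0.324 for B with C. It is thus not settled that a number marks 1 sample on all types. Differences below between genes of different types join arrays by number. Values that depend on 1 sample are given below with and without it. None of the 3 epididymis markers on the arrays passed the signal filter. The summed signal of 13 Sertoli marker genes was 9386 to 11900 at days 0 to 14, 4139 to 6771 at days 18 and 20 and 3835 to 4656 from day 30 on. All 7 spermatid markers rose from day 20 to day 35, and 8 of the 13 Sertoli markers were called lower and 3 higher from day 0 to day 56. The summed signal of 7 Leydig cell markers was 3767 and 2786 at day 0, 741.4 and 602.8 at day 18 and 1832 and 1873 at day 56. Of these 7 markers 3 were called lower and 1 higher from day 0 to day 56, and the part of Leydig cells in the changes below was not tested. In RNA of a whole testis, fewer Sertoli cells among other cells and less RNA per Sertoli cell cannot be told apart.

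Over the 11 days 5 of the 8 genes changed by the F-test, where 57% of all 13472 tested genes did. They were Inha (adjusted p = 2.26e-08), Inhbb (2.39e-05), Amhr2 (9.48e-05), Amh (0.00891) and Fshr (0.0109). Acvr2a (0.0517), Inhba (0.147) and Fst (0.795) did not pass. From day 0 to day 56, Inhbb, Inha and Amh fell and no member rose, so that 3 of 8 were called lower against 21.1% of all genes, and 0 of 8 higher against 15.9%. The median log2 change was -0.98 over the 8 genes and -0.21 over all genes tested.

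**Figure D1:**
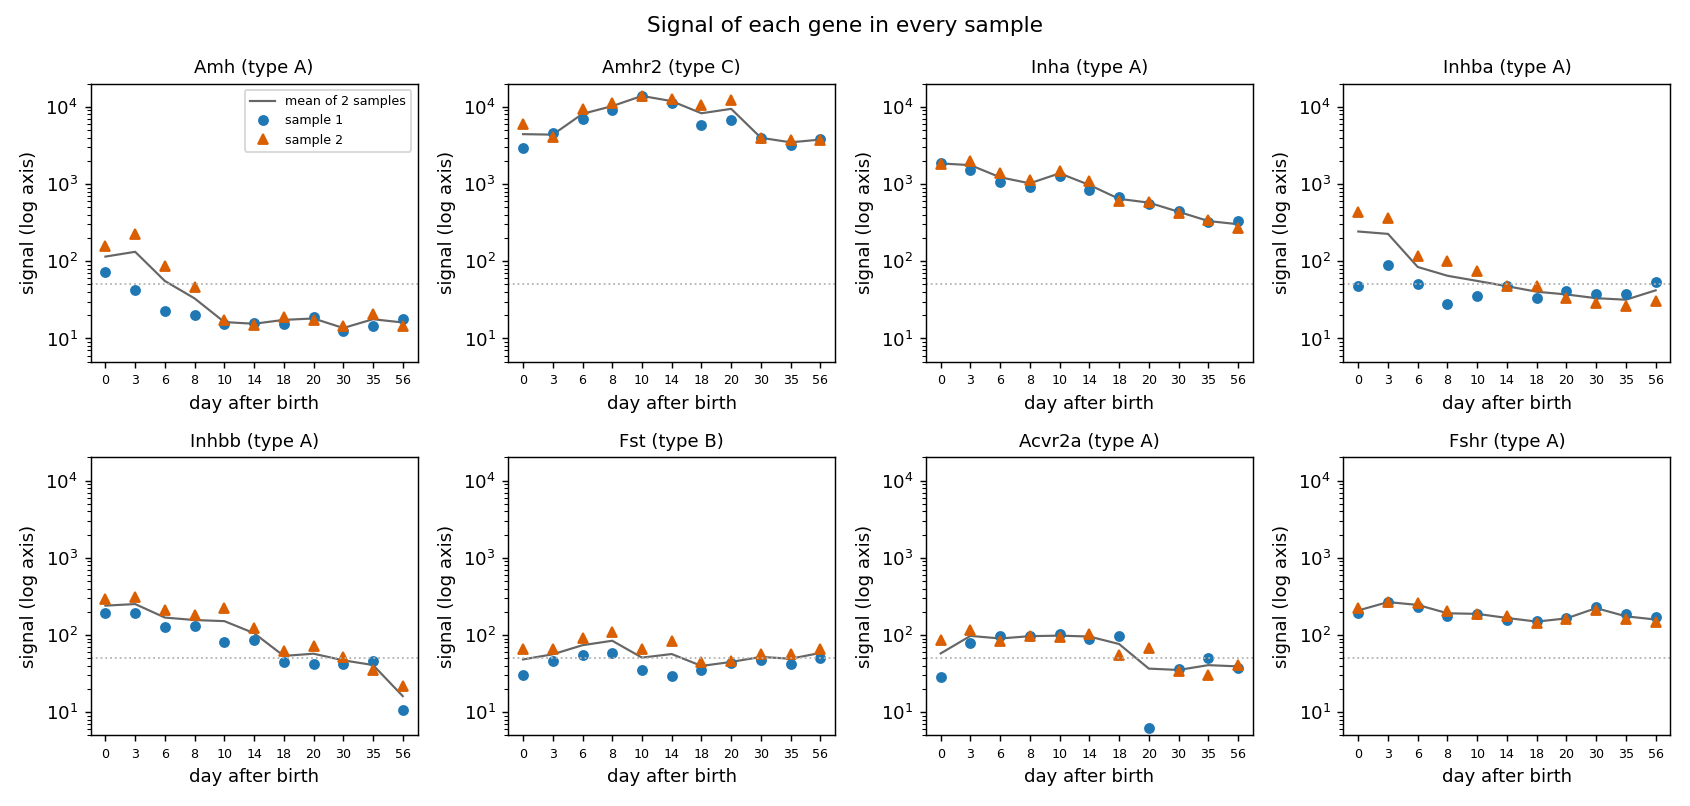
Signal of the representative probe set of each gene in every sample, on a log axis, against day after birth (days evenly spaced). Circles are sample 1, triangles sample 2, lines the mean of both, and the dotted line is the signal of 50 used as a filter. Inha and Inhbb decline with age, Amh lies at 12.6 to 20.8 from day 10 on, Amhr2 peaks at day 10, and Fshr stays between 144.2 and 270.2.

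Amh, the hormone itself, had its high signals in the first days. Its probe set gave 72.3 and 157.6 in samples 1 and 2 at day 0, 42.5 and 222.7 at day 3, 22.9 and 88.1 at day 6, and 20.2 and 45.8 at day 8. The 14 samples of days 10 to 56 lay between 12.6 and 20.8, with a median of 15.75. A signal of 50 was reached on 4 of the 22 arrays, and the lowest early sample, 20.2, was within the later range. Against day 0 the gene was called lower at day 10 (log2 change -1.94 ± 0.52, adjusted p = 0.0356) and at every later day, and the change to day 56 was -1.95 ± 0.52 (adjusted p = 0.00535). The size of this change moved with the pseudocount, from -2.66 with 1 to -1.12 with 64, both called. With day 0 sample 2 left out the change to day 56 was -1.46, and Amh was then called lower than day 0 at no day. In the order of day means, day 3 (133 ± 127, SD, n = 2), day 0 (115 ± 60.3) and day 6 (55.5 ± 46.1) overlapped, and day 8 (33 ± 18.1) was separated from all later days other than day 35, whose higher sample reached 20.8.

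Amhr2, the receptor gene of that hormone, followed another course. Its brightest probe set gave 2929 and 5935 at day 0, 4651 and 4085 at day 3, 6876 and 9368 at day 6, 9234 and 11234 at day 8, and 13983 and 13748 at day 10. It then gave 11077 and 12656 at day 14, 5895 and 10632 at day 18, 6684 and 12171 at day 20, and 3183 to 3996 in the 6 samples of days 30 to 56. Both day 10 samples lay above every other sample, and the adult samples lay within the range of days 0 and 3. The rise from day 0 to day 8 was called (1.28 ± 0.33, adjusted p = 0.0407), as the 1 of 8 genes called higher where 1.37% of all genes were, with 0 of 8 lower (1.24%). The rise to day 10 was 1.73 ± 0.33 (adjusted p = 0.00355). From day 20 to day 35 the signal fell (-1.38 ± 0.33, adjusted p = 0.00874), the 1 of 8 called lower in a window that called 4.3% of genes lower, with 0 of 8 higher (6.06%). The rise to day 8 was lost in 15 of the 22 analyses that left out 1 sample, most of them samples of other days, with log2 changes of 0.78 to 1.79 and adjusted p-values of 0.00969 to 0.258 over the 22, and the change fell to 0.78 without day 0 sample 1. The fall to day 35 missed the threshold when day 20 sample 2 was left out (-0.95, adjusted p = 0.0975) and when day 35 sample 1 was (-1.26, adjusted p = 0.084).

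How far these signals report Amhr2 depends on the probe set. The 4 probe sets of the gene, all on type C, had mean signals of 7436, 1493, 217.8 and 90.22 over the 22 arrays, and the brightest was at the 99.9 percentile of its array type. The names of 3 carry the letter f, which the manufacturer uses where probes are shared by a family of sequences, and 1 carries r, used where the selection rules were relaxed. For 3 of the 4 the annotation gives no sequence accession. The brightest 2 moved together (r = 0.948 over 22 arrays that they share). In a limma test of its own, adjusted over 22191 probe sets, the second, 168683_f_at, rose by 1.51 ± 0.38 from day 0 to day 8 (adjusted p = 0.0459). It fell from day 20 to day 35 (-1.51 ± 0.38, adjusted p = 0.0172). The other 2 had no called change in any of these windows and correlated with the brightest at 0.641 (169400_f_at) and 0.352 (168752_r_at). From day 0 to day 8 the 4, from the brightest to the dimmest, changed by 1.28, 1.51, -0.72 and 0.41. The mean of all 4 was not called in either window (0.62, adjusted p = 0.484, and -0.999, adjusted p = 0.117). Whether the brightest probe set hybridizes to other transcripts was not tested.

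**Figure D2:**
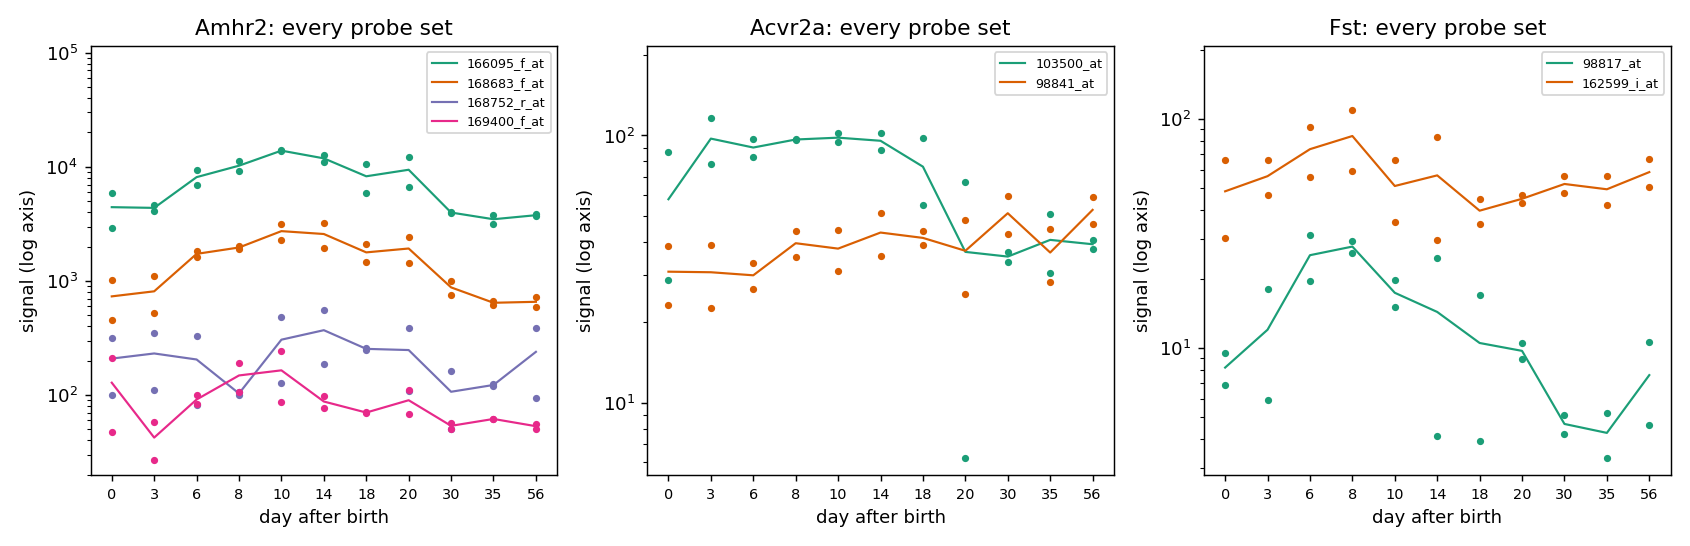
Signal of every probe set of the 3 genes that have more than 1, on log axes, against day after birth (days evenly spaced). Points are single samples and lines the mean of 2 samples. The 4 Amhr2 probe sets span mean signals from 90.22 to 7436 and the brightest 2 have their highest day means at day 10, while 1 of the 2 Acvr2a probe sets drops between days 14 and 20 and the other does not.

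Inha, the alpha subunit of the inhibins, declined over most of the time course. The signals were 1866 and 1834 at day 0, 1507 and 2012 at day 3, 1075 and 1373 at day 6, 924.2 and 1121 at day 8, 1261 and 1497 at day 10, and 844 and 1104 at day 14. They went on at 687.8 and 598.7 at day 18, 556.4 and 593.2 at day 20, 451.7 and 423.8 at day 30, 321.7 and 342.5 at day 35, and 335 and 268.6 at day 56. The 12 samples of days 0 to 14 (843.7 or higher) and the 10 of days 18 to 56 (687.8 or lower) did not overlap, and days 14, 18, 20, 30 and 35 followed each other without overlap. The cut between days 14 and 18 was not among the planned windows. How many of all genes separate there was not counted, so it is not read as particular to Inha. From day 8 to day 10 both samples were higher. The change from day 0 to day 56 was -2.56 ± 0.21 (adjusted p = 2.31e-08). It was spread over the time course. From day 0 to 8 it was -0.85 ± 0.21 (adjusted p = 0.0317), from day 14 to 20 -0.73 ± 0.21 (0.0175) and from day 20 to 35 -0.76 ± 0.21 (0.0198), each under 2-fold, so no single window called the gene. Against day 0 it was called lower from day 18 on.

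Inhbb, the beta B subunit, fell with it. The signals in samples 1 and 2 were 190.3 and 290 at day 0, 191.4 and 312.1 at day 3, 126.2 and 210.3 at day 6, 131.8 and 180.7 at day 8, 81.5 and 221.1 at day 10, and 86.4 and 124.7 at day 14. Later they were 44.9 and 62.3 at day 18, 42 and 72.5 at day 20, 42.3 and 51.7 at day 30, 46.3 and 35.4 at day 35, and 10.7 and 21.6 at day 56. Every sample of days 0 to 14 lay above every sample of days 18 to 56, the same unplanned cut with no count over all genes. Sample 2 was higher at 10 of the 11 days. The change to day 56 was -2.99 ± 0.39 (adjusted p = 6.25e-06), and calls against day 0 began at day 18. The day 56 signals were under the filter of 50 and the lowest of the series, and the size of the change moved between -1.91 and -3.86 over the other settings, all of which called it.

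Inhba, the beta A subunit, differed strongly between the samples of the first days. At day 0 its signal was 48.5 in sample 1 and 437.3 in sample 2, at day 3 it was 88.7 and 363.6, at day 6 50.5 and 118.1, at day 8 27.9 and 101.8, and at day 10 35.9 and 75.3. The 12 samples of days 14 to 56 lay between 26.1 and 53.6. The high values were thus those of sample 2 of the first 5 days and of day 3 sample 1, and sample 1 of days 0, 6, 8 and 10 lay within the later range. The change from day 0 to day 56 was -1.59 ± 0.71 (adjusted p = 0.0757) and was not called, although day 30 (-1.80 ± 0.71, adjusted p = 0.0462) and day 35 (-1.85 ± 0.71, adjusted p = 0.0403) were called lower than day 0. In the order of day means all 10 neighbouring pairs overlapped. Without day 0 sample 1 the change was -2.66 from day 0 to day 8 and -2.996 to day 56. Without day 0 sample 2 the change to day 56 was -0.18, and the calls at days 30 and 35 were lost.

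At days 0 to 8 Amh and Inhba stood out among all genes of type A by this split. Sample 2 exceeded sample 1 by a mean log2 difference of 1.78 for Inhba, at the 99.9 percentile of genes of the type, and of 1.30 for Amh, at the 99.7 percentile. The difference was 0.58 for Inhbb (96.2 percentile), 0.25 for Inha and 0.14 for Fshr. After day 8 it was -0.03 for Inhba and 0.05 for Amh. Amh and Inhba were each other's second most similar gene on type A (r = 0.9 over 22 arrays). These arrays include the early samples just described, so this r is not separate evidence. The actin control, as given above, differed the same way but kept its difference to day 20. With its log2 signal as a covariate in the limma fit, an alternative chosen after seeing the data, the change from day 0 to day 56 was -1.77 for Inhba (adjusted p = 0.00369, now called) and -2.06 for Amh (adjusted p = 0.000461). From day 0 to day 8 it was -1.55 for Inhba (adjusted p = 0.0669) and -1.57 for Amh (adjusted p = 0.0398, now called).

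**Figure D3:**
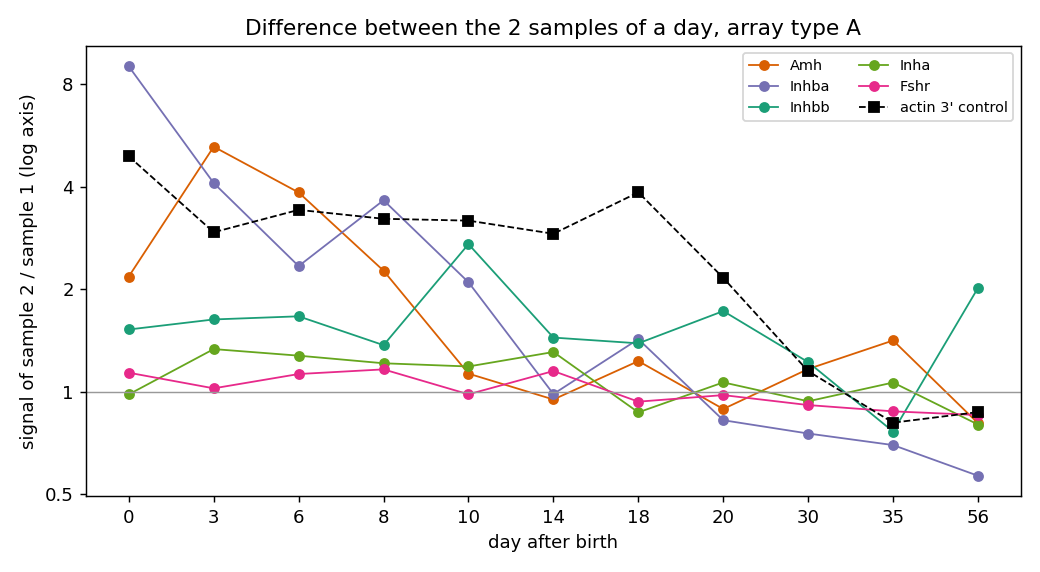
Ratio of the signal in sample 2 to that in sample 1 at each day, on a log axis, for 5 genes measured on array type A and for the actin 3' control probe set (black squares, dashed). A ratio of 1 means equal signals. Amh and Inhba lie well above 1 at days 0 to 8, Inha and Fshr stay closer to 1, and the actin control stays at 2.16 or more up to day 20.

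Fst, the gene of the activin antagonist follistatin, was called in no comparison. Its representative probe set, on type B, had a median signal of 62.55 (30.3 to 109.4) in the 8 samples of days 0 to 8 and of 53.55 (42.1 to 66.6) in the 6 samples of days 30 to 56, ranges that overlapped. The change from day 0 to day 56 was 0.27 ± 0.42 and the F-test was not passed (adjusted p = 0.795). Sample 2 was higher than sample 1 at 11 of 11 days. The probe set's name carries the letter i, used by the manufacturer for an incomplete set. A second probe set on type A lay at 3.3 to 31.2, never reached 50 and was not tested. By mean signal the 2 stood at the 39.5 and the 18.8 percentile of their array types.

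Acvr2a, a type II activin receptor, was reported by 2 probe sets that differ. In 103500_at the signals were 28.9 and 86.6 at day 0, 78 to 116.7 in the 10 samples of days 3 to 14, 97.8 and 55.1 at day 18, 6.2 and 67.2 at day 20, and 30.6 to 50.8 in the 6 samples of days 30 to 56. The 6 late samples lay below all samples of days 3 to 20 other than day 20 sample 1. From day 14 to day 20 the gene was called lower (-1.37 ± 0.46, adjusted p = 0.042), 1 of 8 genes where 8.36% of all genes were lower, with 0 of 8 higher (7.41%). That call rests on the signal of 6.2 in day 20 sample 1, without which the change was -0.42 (adjusted p = 0.529). It was lost in 13 of the 22 analyses that left out 1 sample. In 10 of these, which left out a sample of days 6, 8, 10, 30 or 56, the change stayed at -1.37 and the adjusted p was 0.0507 to 0.054. In the others it was -1.46 and -1.28 (adjusted p = 0.118 and 0.176, without day 14 samples 1 and 2) and the -0.42 just given. The second probe set, 98841_at, gave 22.7 to 59.6 with no called change, and the 2 did not move together (r = 0.037 over 22 arrays).

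Fshr, the FSH receptor gene, moved within a narrow range. The signals were 194.7 and 221.5 at day 0, 263.8 and 270.2 at day 3, 230.5 and 260 at day 6, 176.7 and 205.7 at day 8, 144.2 to 189.4 in the 8 samples of days 10 to 20, 233 and 213.1 at day 30, 186.2 and 163.2 at day 35, and 171 and 146.2 at day 56. The F-test was passed, yet the highest sample was less than 2-fold above the lowest, and no window or comparison with day 0 was called. The day means ran from 267 ± 4.53 at day 3 to 149 ± 7 at day 18 (SD, n = 2). The change from day 0 to day 56 was -0.36 ± 0.17 (adjusted p = 0.0998).

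Between days 8 and 14 none of the 8 genes was called by limma, where 0.289% of all genes were called lower and 1.13% higher. None of the 8 had an unadjusted p under 0.05, where 1390 of all 13472 genes did. Between days 35 and 56 none was called either (0% of all genes), and 1 member and 1235 of all genes had an unadjusted p under 0.05. In the comparisons with day 0, which share the day 0 samples, the members called lower were 0 at day 3 (0.0223% of all genes), 0 at day 6 (0.327%), 1 at day 10 (2.09%), 1 at day 14 (4.94%), 3 at day 18 (11.1%), 3 at day 20 (14%), 4 at day 30 (20.2%) and 4 at day 35 (21%). Amhr2 was called higher at day 10 (2.75% of all genes), day 14 (5.62%) and day 20 (12%). The order of first calls was thus Amhr2 at day 8, Amh at day 10, Inha and Inhbb at day 18 and Inhba at day 30. It is an order of passing thresholds and does not give the onset of change. Amh stood at -1.39 at day 8 (limma adjusted p = 0.188) and Inhba at -1.31 at day 10 (0.346), both uncalled. Inha at day 14 missed only the 2-fold rule (-0.93, adjusted p = 0.00609). The day 8 call of Amhr2 was lost in 15 of the 22 analyses without 1 sample. Without day 0 sample 2, Amh and Inhba were called against day 0 at no day, while Amhr2, Inha and Inhbb were still called.

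**Figure D4:**
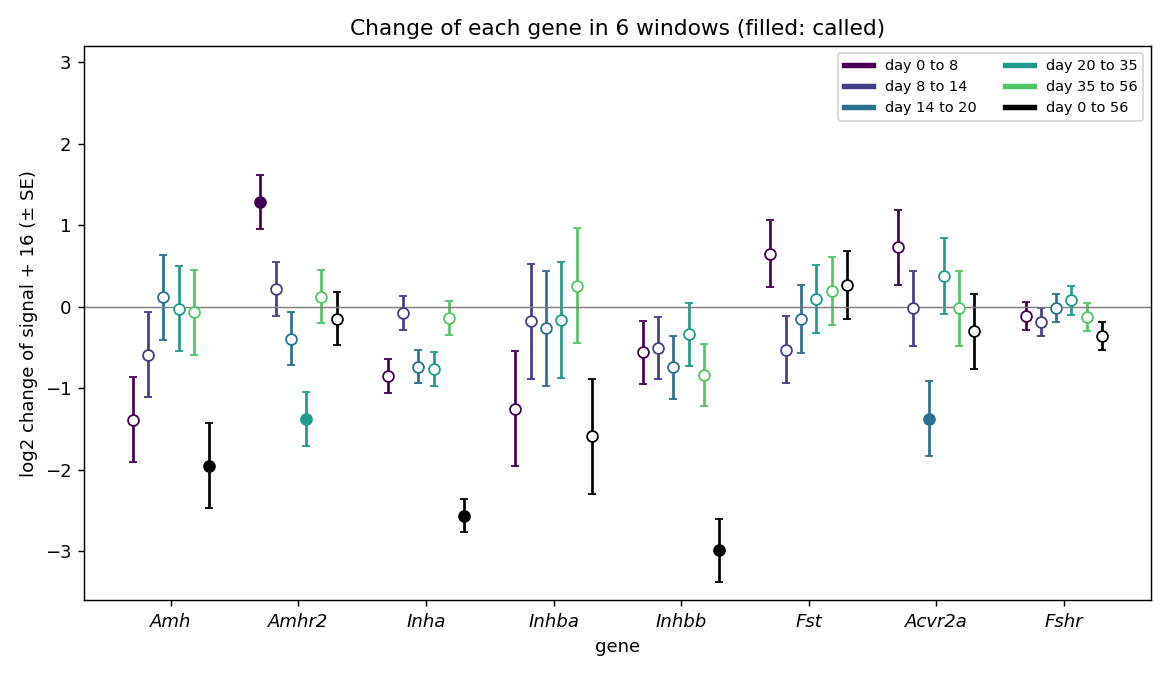
Log2 change of signal + 16 with its standard error for the 8 genes in 6 windows, coloured by window. Filled points were called and open points were not. Filled points lie at day 0 to 56 for Amh, Inha and Inhbb, at day 0 to 8 and day 20 to 35 for Amhr2, and at day 14 to 20 for Acvr2a.

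Pairs of members were compared between the 8 samples of days 0 to 8 and the 6 samples of days 30 to 56, which asks whether 2 genes changed unequally. Each p is from a two-sided exact permutation test, whose smallest possible value is 0.000333, and was adjusted over the 7 pairs; samples of different days within an age range were treated as alike. Fshr rose relative to Inha by a log2 difference of 1.68, from -2.56 ± 0.37 (SD, n = 8) to -0.89 ± 0.09 (n = 6), with no overlap (exact permutation p = 0.000333, adjusted 0.00233). Fshr itself changed by -0.28 and Inha by -1.96, so this difference is mostly the fall of Inha. The other 6 pairs did not pass. Inhbb relative to Inha differed by -0.17 (exact permutation p = 0.373), and with a pseudocount of 64, which shrinks the dimmer Inhbb more, this turned to 0.41. Inhba relative to Inha differed by 0.68 (exact permutation p = 0.128), Amh relative to Inha by 0.60 (0.0666) and Inhba relative to Inhbb by 0.86 (0.0639). Fst relative to Inhba differed by 1.09 (exact permutation p = 0.0396, adjusted 0.117), and Amh relative to Amhr2 by -0.63 (exact permutation p = 0.301).

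The same samples were used to set each gene against the mean log2 signal of 9 Sertoli identity genes (Sox9, Wt1, Gata4, Sox8, Dhh, Cldn11, Clu, Trf and Nr5a1). The other 4 of the 13 Sertoli markers were not in this list, and from day 0 to day 56 Rhox5 (1.36) and Tsx (3.37) were called higher and Kitl (-1.77) and Krt18 (-1.30) lower. Of all 13 markers 3 were called higher and 8 lower, so the list itself also held a gene called higher. The mean of the 9 fell by 1.30 between the age ranges, from 9.52 ± 0.14 to 8.23 ± 0.22 (exact permutation p = 0.000333). Inha fell further than the list by 0.66 (exact permutation p = 0.0157, adjusted over the 8 genes 0.0313) and Inhbb by 0.84 (exact permutation p = 0.00533, adjusted 0.0142). Both overlapped between the age ranges. Inha stood at 1.485 and 1.446 from the list at day 0 and at 0.246 and 0.531 at day 8. Its late samples lay at -0.013 to 0.619. Inhbb stood at -1.704 and -1.15 at day 0 and -2.423 and -2.001 at day 8, with late samples at -3.097 to -2.303. Part of each drop thus lay within days 0 to 8. Fshr rose relative to the list by 1.02 and Fst by 1.11, both without overlap (exact permutation p = 0.000333, adjusted 0.00133). Their own signals changed by -0.28 and -0.19, so most of each difference is the fall of the list. How many of all genes would rise relative to the list in this way was not counted. The list fell by 1.30, while the median change of all genes from day 0 to day 56 was -0.21. A rise relative to the list is therefore not read as particular to Fshr or Fst. Amhr2 (0.56, exact permutation p = 0.043) and Acvr2a (0.44, exact permutation p = 0.0443) did not pass after adjustment (0.0591 for each), nor did Amh (-0.06, exact permutation p = 0.868) or Inhba (0.02, exact permutation p = 0.977), whose early samples were widely spread. The 9 genes do not move alike, and with Sox9, Wt1 and Gata4 alone neither Inha (-0.31, adjusted p = 0.105) nor Inhbb (-0.49, adjusted p = 0.0575) passed this permutation test, while Amhr2 (0.91, adjusted p = 0.0366) and Acvr2a (0.79, adjusted p = 0.0124) did. Over all settings other than leaving out a sample, Amhr2 passed in 4 of 11 (0.10 to 0.91) and Acvr2a in 6 of 11 (0.26 to 0.90). Inhbb also failed with a pseudocount of 64 (-0.25, adjusted permutation p = 0.194). Inha failed with suffixed probe sets left out (-0.58, adjusted permutation p = 0.0684). Inha was also not called in 6 of the 22 analyses without 1 sample (days 0 and 35 samples 1 and 2, day 3 sample 1 and day 56 sample 2), where the difference was -0.59 to -0.63.

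**Figure D5:**
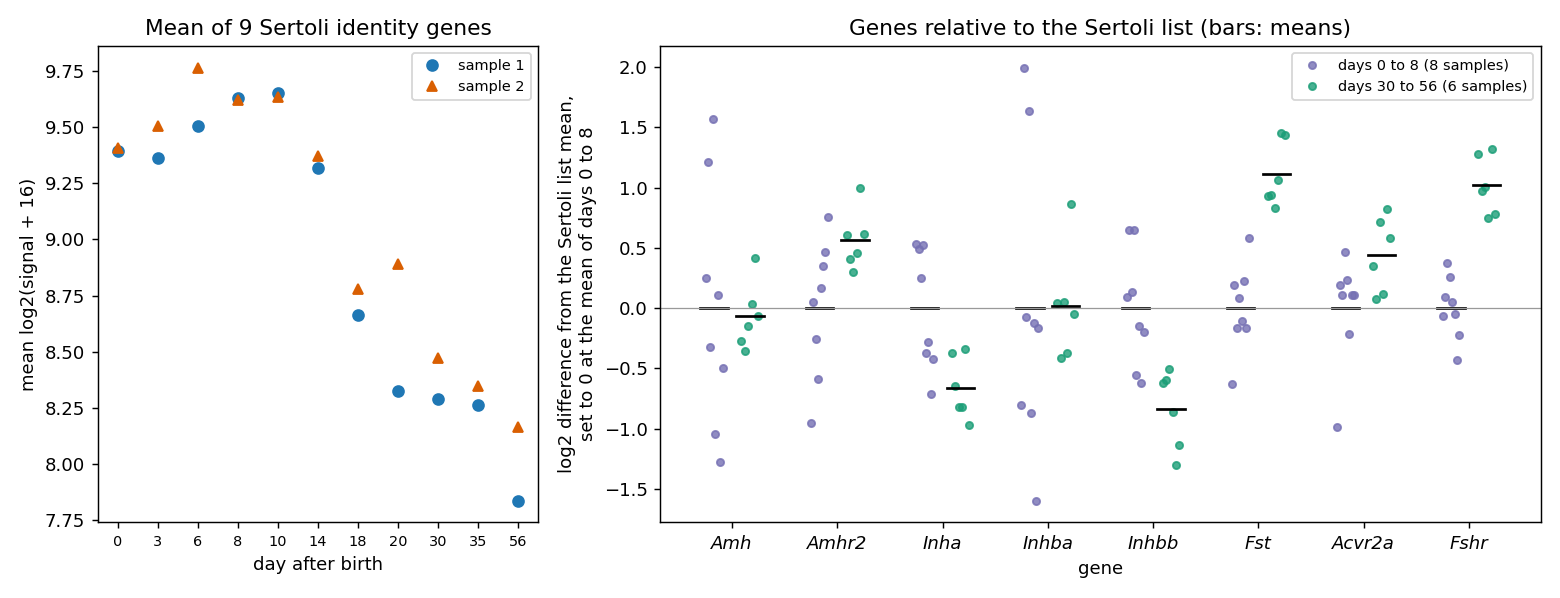
Left, mean log2(signal + 16) of 9 Sertoli identity genes in each sample against day after birth (days evenly spaced). Right, log2 difference of each gene from that mean in the 8 samples of days 0 to 8 (purple) and the 6 of days 30 to 56 (green), set to 0 at the early mean, with bars at the means. Inha and Inhbb lie below 0 in the late samples but overlap their early samples, while all late samples of Fst and Fshr lie above their early samples.

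The lists of related genes that follow are counts beside the shares over all 13472 genes, which from day 0 to day 56 were 21.1% lower and 15.9% higher with a median log2 change of -0.21, and nothing is claimed as particular to a list. The receptors and co-receptors that work beside the products of Amhr2 and Acvr2a fell or missed the threshold. Of 11 tested genes 6 were called lower from day 0 to day 56 and 0 higher (21.1% and 15.9% of all genes), with a median of -1.74 (-0.21). Eng, which encodes the co-receptor endoglin, known from endothelium, had the largest fall of the list (-3.80 ± 0.42, adjusted p = 1.18e-06). Over the same span the summed signal of 4 endothelium markers went from 747.6 and 603.8 at day 0 to 171.6 and 133.7 at day 56 (1 of 4 called lower), of 5 peritubular and smooth muscle markers from 3159 and 1728 to 566.7 and 516.5 (3 of 5 lower) and of 3 erythroid markers from 8685 and 4875 to 866 and 655.8 (1 of 3 lower). Their part in these falls was not tested. Bmpr1a and Bmpr2, type I and type II receptors, fell from day 14 to day 20 by -1.56 ± 0.28 and -1.77 ± 0.31 (adjusted p = 0.000914 and 0.000595). Of 13 Smads and their regulators 7 were lower and 0 higher from day 0 to day 56 (21.1% and 15.9% of all genes), with a median of -1.01 against -0.21. Smad4, the common partner of the signalling Smads, fell between days 14 and 20 (-1.50 ± 0.33, adjusted p = 0.00412), and Smad3, which carries activin signals, between days 20 and 35 (-1.33 ± 0.43, adjusted p = 0.0482). Smad6, an inhibitory Smad, fell to day 8 (-1.22 ± 0.27, adjusted p = 0.0177) and rose from day 20 to day 35 (2.80 ± 0.27, adjusted p = 6.04e-07). Of 13 other ligands and antagonists of the family 5 were lower and 0 higher to day 56 (21.1% and 15.9% of all genes; median -0.78 against -0.21), with Fstl1, a follistatin-related gene, at -3.36 ± 0.25 (adjusted p = 8.92e-09).

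Genes of FSH receptor signalling, most of which act on or downstream of cyclic AMP, moved both ways while the Fshr signals lay between 144.2 and 270.2. Of 17 tested, 8 were called lower and 2 higher from day 0 to day 56 (21.1% and 15.9% of all genes), with a median of -0.83 against -0.21, so the share called higher was near that of all genes. Gnas, which encodes the stimulatory G protein subunit, fell by -2.94 ± 0.26 (adjusted p = 5.56e-08). Among the regulatory subunits of protein kinase A, Prkar2b fell (-3.80 ± 0.41, adjusted p = 6.77e-07), most of it from day 14 to day 20 (-2.62 ± 0.41), and Prkar2a rose (2.97 ± 0.30, adjusted p = 2.67e-07), most of it from day 20 to day 35 (2.96 ± 0.30). In that last window Arrb2, a beta-arrestin gene, fell (-1.72 ± 0.49, adjusted p = 0.0241) and Pde4a, a cyclic AMP phosphodiesterase, rose (1.41 ± 0.46, adjusted p = 0.0481). Of 11 genes known to respond to FSH in Sertoli cells, 5 were lower and 1 higher to day 56 (21.1% and 15.9% of all genes; median -0.64 against -0.21), the share called higher again near that of all genes. Ldha, a lactate dehydrogenase, fell to day 8 (-1.11 ± 0.29, adjusted p = 0.0454) and rose from day 14 to day 20 (2.88 ± 0.29, adjusted p = 3.96e-06), when Kitl, the ligand of the Kit receptor, fell (-2.48 ± 0.47, adjusted p = 0.00143). Several of these genes are also expressed by germ cells. From day 14 to day 20, 4 of 6 spermatocyte markers rose and 1 fell, and their summed signal went from 3977 and 3925 to 14780 and 18570. All 7 spermatid markers rose from day 20 to day 35, and the part of these cells in the changes above was not tested.

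Of 11 tested regulators of Amh transcription, 7 were lower and 1 higher from day 0 to day 56 (21.1% and 15.9% of all genes), with a median of -1.57 against -0.21. Sox9, Sox8, Wt1, Gata4, Nr5a1 and Rhox5 are also among the Sertoli markers, and all but Rhox5 are in the Sertoli identity list. The counts are therefore not independent of those of the Sertoli markers. From day 0 to day 8 and from day 8 to day 14 none was called lower by limma, as 1.24% and 0.289% of all genes were, so a count of 0 of 11 is near the background. Dmrt1 (1.54 ± 0.23, adjusted p = 0.00126) and Gata1 (1.47 ± 0.30, adjusted p = 0.0122) rose from day 0 to day 8, and Rhox5, a homeobox gene of Sertoli cells, rose from day 8 to day 14 (1.16 ± 0.27, adjusted p = 0.0368). Gata4, which encodes a GATA factor of Sertoli cells, was lower at day 56 (-3.77 ± 0.43, adjusted p = 1.07e-06), and Gata1 fell from day 20 to day 35 (-1.36 ± 0.30, adjusted p = 0.00597). Dmrt1 is also known from spermatogonia, and 4 of 7 spermatogonia markers rose from day 0 to day 8.

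The genes most like each member were found among the genes of its own array type by Pearson's r over the 22 arrays, which share scaling and samples. Inha was most like Islr (r = 0.978), Gnas (0.975), Cnn2 (0.975), Shc1 (0.973) and Cnn3 (0.972), and its r with Inhbb was 0.935. Inhbb was most like Extl3 (0.968), Col6a1 (0.967), Zfp362 (0.966), Mapkapk2 (0.959) and Gnas (0.959). Amh was most like Abl1 (0.903), Inhba (0.9), Ptpn9 (0.889), Egr1 (0.886) and Fzd2 (0.866), and Inhba was most like Ccnd2 (0.906), Amh (0.9), Cbfa2t3 (0.869), Egr1 (0.861) and Tgfb2 (0.846). Amhr2 was most like Rhox13 (0.933), Scara5 (0.9), Enoph1 (0.896), Mxd4 (0.891) and Gid8 (0.875). Acvr2a was most like Atp13a3 (0.959), Ppp1cb (0.957), Tnpo1 (0.956), Abce1 (0.946) and the locus AW549877 (0.943). The closest genes to Fshr were Pipox (0.789), Epha3 (0.782), Tspan6 (0.778), Mmp14 (0.762) and Cxxc5 (0.762), and to Fst Erap1 (0.757), Nap1l5 (0.739), Edn3 (0.731), Myoz2 (0.72) and Fam189a1 (0.713). The highest r of Inha and Inhbb exceeded those of the nearly level Fshr and Fst. As r depends on how much a gene changes, this adds nothing to the changes given above.

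The 8 genes lie on 6 chromosomes of GRCm38.p6. Inha (chr1:75507077-75510366) and Inhbb (chr1:119415463-119422248) share chromosome 1, and Inhba (chr13:16004256-16031609) and Fst (chr13:114452262-114458989) share chromosome 13. Amh is at chr10:80805240-80807679, Amhr2 at chr15:102445002-102454640, Acvr2a at chr2:48814109-48903264 and Fshr at chr17:88984952-89200675.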

How the data were processed

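Per the labels, total RNA of whole testes was isolated with TRIzol and hybridized to the 3 array types, and the deposited values are signal intensities that the authors scaled to a mean of 125. With 2% of probe sets left out at each end, every array's mean was 125 to 125.1. The software used is not given in the sources used here. Of 36899 probe sets, 198 were controls, 29131 named 1 gene, 724 several and 6846 none; 29044 of those with 1 gene matched a RefSeq gene of GRCm38.p6.

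From these intensities log2(signal + 16) was computed and fitted per array type with limma 3.58.1 (R 4.3.3): 11 day means, eBayes with trend; each probe set has 11 residual degrees of freedom without moderation. P-values are two-sided, adjusted by Benjamini-Hochberg over 13472 genes per comparison. Tests of probe sets other than the representative of a gene were adjusted over the 22191 kept probe sets. A simulated data set with known changes was used to check the fit. Pairs and Sertoli differences used exact permutation over samples. Members, lists and tests were chosen with earlier results of these data known. Named genes are the 8 members, the 6 largest called changes per window among the pathway lists, and 5 genes most like each member. Marker and pathway lists were counted and not tested.

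Alternatives covered the pseudocount, signal filter, scaling, probe set choice, variance trend, age ranges, the Sertoli list and leaving out each sample. Leaving out probe sets with suffixed names, the actin covariate and exchanged sample numbers were chosen after seeing the data. The planned description of ligand protein sequences was not run.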

Additional observations from a re-analysis of the deposited data

How the results depend on the processing

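The falls of Inha and Inhbb from day 0 to day 56 were called under all 35 alternatives run, at -2.71 to -2.39 and -3.86 to -1.91. With each sample left out in turn, the number of members called over all days was 5 to 7, against any day 3 to 6 (3 without day 0 sample 2), from day 0 to 8, 14 to 20 and 20 to 35 each 0 to 1, from day 0 to 56 2 to 4, and of 7 pairs 1 to 2 (2 without day 8 sample 1). From day 0 to day 8, 0 members were called with a filter of 125, median scaling, the mean probe set, no variance trend or suffixed probe sets left out, and 2 with the actin control as a covariate. From day 14 to day 20, 0 were called with a pseudocount of 64, a floor of 32, no filter, a filter of 125, median scaling or the mean probe set, and quantile normalization called Inha in place of Acvr2a. From day 20 to day 35, 0 were called with the mean probe set or suffixed probe sets left out. A pseudocount of 64 called 4 of 7 pairs, and turned Inhbb minus Inha from -0.17 to 0.41 (adjusted exact permutation p = 0.00777). With sample numbers exchanged on types B and C up to day 20, no pair gained or lost a call. Among the Sertoli differences only Acvr2a changed sides, and passed (0.44, adjusted exact permutation p = 0.0464). The median of all genes from day 0 to day 56 was -0.21, with median scaling -0.03 and with quantile normalization -0.11. With the sample number as a replicate block, 6 members were called over all days (Acvr2a was added) and 4 from day 0 to day 56 (Inhba was added, with an adjusted p of 0.0429), and no other call changed in these windows. Deviations of same-numbered samples of different days correlated at -0.209 to 0.565 on type A, -0.018 to 0.407 on B and -0.081 to 0.273 on C, and shares of 0.491, 0.491 and 0.345 of the pairs of days lay over 0.1. With 2 samples a day a negative value means that unlike numbers were closer, so not every sample correlated best with its own number, and the numbers were not taken as pairs although the actin control differed with 1 sign up to day 20 on each type. With a floor of 32 the F-test of Amh gave an adjusted p of 0.0506. Of the values for single genes and pairs, 806 kept their side of the threshold, 53 lost and 17 gained a call, and 1 reversed. Causes were not tested. Detection calls were not used here, so signals under 50, as for Amh from day 10 on, come with no test of presence.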
